A study of Mus musculus with 6 samples.

Results

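The effect of the freed intracellular domain of epithin/PRSS14 (gene St14) was read from 2 RNA-seq libraries of SPPL2b knockdown cells, one from cells given a GFP vector and one from cells given the GFP vector together with Flag-EICD. The 8919 genes described here were chosen by their measured values in these 2 libraries, out of 25001 loci in all. A gene was taken if it carried a name, if its gene model was annotated or annotated with newly assembled isoforms, and if its value was 5 FPKM or higher in either library. FPKM is the number of fragments per kilobase of transcript, scaled to the number of fragments in the library. Of the 8919 genes, 8502 reached 5 FPKM in both libraries, 321 in the EICD library only and 96 in the GFP library only. Just inside the limit, Ppt2 had 5.004 FPKM and Zcwpw1 5.01 FPKM in the EICD library, and Zfp60 had 5.01 FPKM in the GFP library. Just outside it, Six5 had 4.9997 FPKM, 2210404O09Rik 4.9995 FPKM and Col9a3 4.999 FPKM, all in the EICD library.

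Epithin/PRSS14 is a membrane-bound serine protease of epithelial cells. Its ectodomain can be shed, and SPPL2b, a presenilin-like protease, can then cut the remaining stub within the membrane and release the N-terminal cytoplasmic piece, the EICD, which is the N55 fragment of the labels. The 427 line is a mouse thymoma cell line. All cells of the EICD comparison were 427 cells with SPPL2b knocked down, at passages 4-10, and GFP-positive cells were sorted by flow cytometry after transfection. The labels name an siRNA against SPPL2b for these libraries, whereas the study's methods describe a stable shRNA clone. The other 4 libraries of the series came from cells given neither the GFP nor the EICD vector, called untransfected here. These had the pSUPER control vector or the SPPL2b knockdown, each treated with DMSO or with PMA. PMA, the phorbol ester used here to set off shedding, was given at 1 µM for 2 h, following 2 h in serum-free medium. There was 1 library per condition, so no difference below has a replicate check and none was tested. What EICD did and how the 2 transfected cultures happened to differ cannot be told apart, and each statement compares these libraries. In bulk RNA, fewer cells that express a gene and less of its RNA per cell cannot be told apart either.

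The low FPKM values rise in steps of what 1 fragment is worth, and from these steps the GFP library held about 25.3 × 10⁶ fragments and the EICD library about 26.5 × 10⁶. At this depth the estimate for the median gene of the set with GFP was 2073 fragments, and the 5th percentile was 350. St14 itself, which also counts fragments of the transfected construct, had 69.6 FPKM in the GFP library and 614.5 FPKM in the EICD library, against 81.8 to 105.4 FPKM in the untransfected libraries. Sppl2b had 11.4 FPKM with GFP and 13.2 FPKM with EICD, and its 13.4 FPKM in knockdown cells with DMSO was not below the 9.90 FPKM of the control vector cells. The Sppl2b locus overlaps Lsm7 on the other strand. Of 10 thymic epithelial markers 7 were in the set, among them Krt5, Krt14, Epcam, Cdh1 and Foxn1, while Aire was listed at 0. The 10 summed to 15032 FPKM with GFP and 10870 FPKM with EICD. Most of this was Krt5, at 10705 and 7993 FPKM, and Krt14, at 3820 and 2456 FPKM. In the untransfected libraries the sum was 6328 to 8626 FPKM, so the GFP library stood highest. No marker of T cells, macrophages or fibroblasts reached 5 FPKM in the GFP or the EICD library. The T cell markers summed to 2.63 FPKM with GFP and 2.49 FPKM with EICD.

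The log2 fold change was taken as the EICD library with 0.01 FPKM added over the GFP library, for the 8918 genes whose GFP value was 0.01 FPKM or higher. The remaining gene, Crygn, is listed at 0 in the GFP library and had 10.9 FPKM in the EICD library. The median log2 fold change was 0.05, and the quartiles were -0.15 and 0.26, with 4999 genes above 0 and 3919 below. More than 2-fold higher with EICD were 167 genes, 1.87% of the set, and more than 2-fold lower were 20 genes, 0.224%. Past 1.5-fold, 645 genes (7.23%) were higher and 181 (2.03%) were lower. Higher calls made up 78.1% of all calls past 1.5-fold, but 35.6% (325 against 589) when both libraries were brought to 1 common FPKM sum, which lowers every log2 fold change by 0.18. Scaled to the upper quartile they were 62.9%, centred on the median of the members 67.8%, and centred within eighths of the expression level 63.6%. Of the 167 genes more than 2-fold higher, 71 reached 5 FPKM in the EICD library only, so the entry limit itself favoured an increase for them. Among genes at 5 FPKM or more in both libraries, 96 were more than 2-fold higher and 11 were lower. The set holds 29 chemokine ligand or cytokine array genes, of which 13 were more than 2-fold higher. Apart from Vegfa, whose protein is on the array, these are not described further.

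The fold change depended on how strongly a gene was expressed. Ordered by the mean FPKM of both libraries and cut into eighths, the genes had a median log2 fold change of 0.22 in the lowest eighth (up to 8.30 FPKM) and of -0.15 in the highest (above 82.3 FPKM). The share of genes more than 1.5-fold higher was 18.7% in the lowest eighth and 4.04% in the highest. Across 8918 genes, Spearman's rho with the mean FPKM was -0.31. The 2134 genes with the shortest transcripts, 2288 bases or fewer, had a median of -0.07, and the 2134 with the longest, 4929 bases or more, had 0.13. Some lists are therefore given below also relative to the median of their genes' own eighth of expression.

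**Figure D1:**
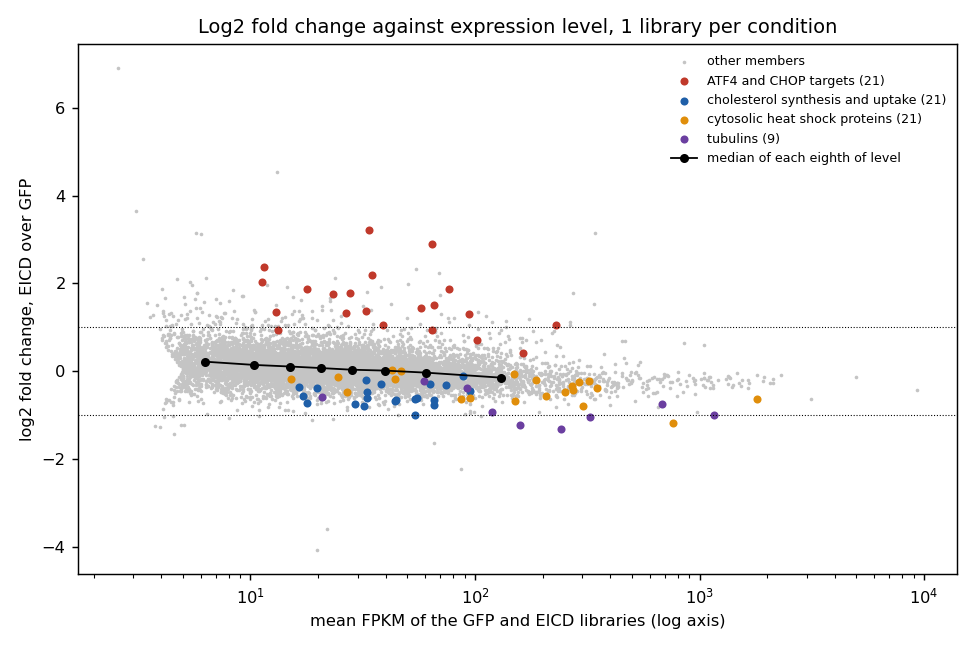
Log2 fold change of EICD over GFP (vertical axis) against the mean FPKM of both libraries (horizontal axis, logarithmic) for the 8918 genes with a fold change; dotted lines mark 2-fold. The median of each eighth (black line) runs from 0.22 at the left to -0.15 at the right, the targets of ATF4 and CHOP (red) lie above it, and the cholesterol genes (blue) and tubulins (purple) below it.

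The genes of the integrated stress response stood highest with EICD. In this response, cells that lack amino acids or carry unfolded proteins slow general translation while the transcription factor ATF4 is made, and ATF4 with its partners CHOP (Ddit3), ATF3 and the C/EBP proteins switches on genes for amino acid supply and for ending the stress. Of 22 listed targets and members of this pathway, 21 were in the set, and Stc2, below 1 FPKM in both libraries, was not. All 21 were higher with EICD, 20 of them more than 1.5-fold and 17 more than 2-fold, with a median log2 fold change of 1.45, or 1.48 relative to the genes of the same level. Among them Slc7a11 and Aldh1l2 reached 5 FPKM in the EICD library only. All 21 also had their highest value of the 6 libraries in the EICD library, which was so for 26.8% of the whole set.

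The leading genes were a feedback inhibitor and an enzyme of glutathione breakdown. Trib3 (chromosome 2, 152337422 to 152344032, GRCm38), a pseudokinase that restrains ATF4 and CHOP, had 60.9 FPKM with EICD and 6.57 FPKM with GFP, and between 3.74 and 5.003 FPKM in the untransfected libraries. Chac1 (chromosome 2, 119351229 to 119354381), which degrades glutathione, had 113.3 FPKM with EICD, 15.2 FPKM with GFP and 10.4 to 14.4 FPKM in the untransfected libraries. For both genes the EICD library stood alone and the GFP library was far nearer to the untransfected ones, a 9.27-fold and a 7.47-fold difference between the transfections.

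Among the transcription factors of the pathway, Ddit3 had 43.1 FPKM with EICD and 12.5 FPKM with GFP, against 8.60 to 12.1 FPKM without transfection. Atf3 had 120.6 FPKM with EICD and 33.0 FPKM with GFP, and only 2.74 to 9.91 FPKM in the untransfected libraries, so that it differed between the GFP library and the untransfected cells as well. Atf5 and Cebpg had log2 fold changes of 1.75 and 1.06, Cebpb 0.93. The mRNA of Atf4, whose protein is controlled mainly at translation, was 139.6 FPKM with GFP and 186.9 FPKM with EICD, a log2 fold change of 0.42, the smallest of the list. Of the feedback and stress-tolerance genes, Nupr1, a small chromatin protein, had a log2 fold change of 2.19 and Ppp1r15a, the phosphatase subunit that restores translation, 1.45. Sesn2 and Ddit4, which restrain mTORC1, had 1.36 and 1.06, and Eif4ebp1, which holds back cap-dependent translation, had 1.31. Ddit4 was the most abundant of the list in the GFP library, at 148.4 FPKM against 310.1 FPKM with EICD.

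**Figure D2:**
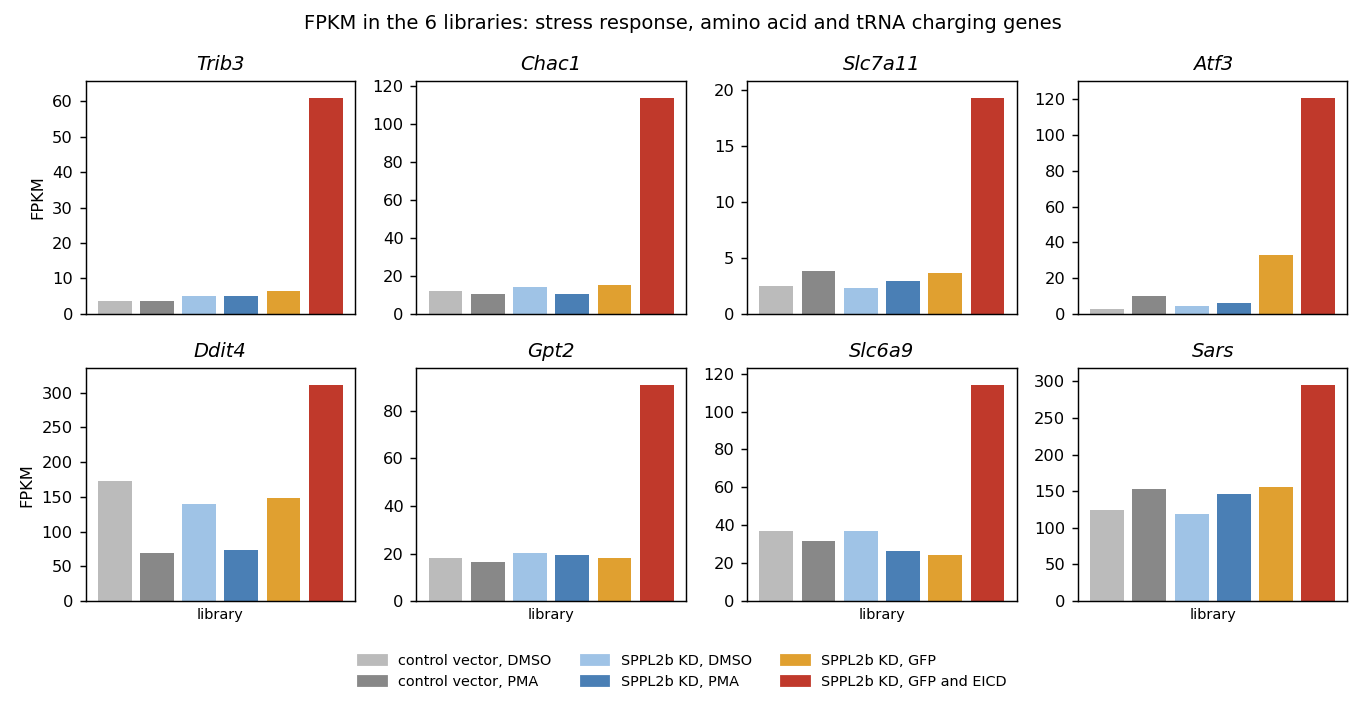
FPKM (vertical axes, from 0, each gene on its own scale) of 8 genes in the 6 libraries, 1 bar per library. Trib3 is at 6.57 FPKM in the GFP library and 60.9 FPKM in the EICD library, and in all 8 genes the EICD bar (red) is the highest.

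Sequences upstream of these genes were searched for the ATF4-C/EBP composite element, spelled TGATGNAA, on both strands from 250 bases before to 50 after the RefSeq start. The element was in 1219 of 27025 mouse promoters (4.51%) and in 177 of the 6931 genes of the set that matched a promoter by symbol (2.55%). It was in 8 of 17 of the ATF4 and CHOP list (47.1%), in 5 of 12 cytosolic aminoacyl-tRNA synthetases (41.7%), in 2 of 8 amino acid transporters (25%) and in 16 of 130 genes more than 2-fold higher (12.3%) against 0 of 15 more than 2-fold lower. Past 1.5-fold it was in 33 of 502 higher genes (6.57%) and in 3 of 138 lower genes (2.17%). The ATF4 and CHOP list was drawn from known targets of ATF4, so its share describes how it was chosen as much as these cells. All 8 of its genes with the element, among them Chac1, Atf3 and Herpud1, are also counted among the 130 genes. So are Slc1a4, Asns and Pycr1, which come from the lists of amino acid transporters and enzymes. The 12.3% is therefore not separate from these lists. At the 2.55% of the set, few matches or none would fall in 15 promoters, so 0 of 15 says little. Other elements were searched in the same promoters. The AP-1 element was in 15 of the 130 genes more than 2-fold higher (11.5%), against 400 of 6931 in the set (5.77%). The interferon-stimulated response core was in 8 of 130 (6.15%) against 3.39% of the set. The cyclic AMP response element was in 4 of 130 (3.08%) against 3.9%, and the serum response CArG core in 0 of 130. A higher share among the raised genes was thus not limited to the ATF4-C/EBP element. A match to the ATF4-C/EBP element is not a bound site. The stretches below hold the element of 6 members and are shown because these genes had large fold changes or, for Aars, represent the synthetases; capitals mark the element on either strand, and each runs 5′ to 3′ on the strand of its gene (RefSeq, GRCm38.p6).
Chac1, chr2:119351025-119351080, plus strand: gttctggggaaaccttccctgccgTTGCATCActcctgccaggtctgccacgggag
Slc7a11, chr3:50443648-50443703, minus strand: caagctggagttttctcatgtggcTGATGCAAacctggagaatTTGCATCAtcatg
Nupr1, chr7:126625549-126625604, minus strand: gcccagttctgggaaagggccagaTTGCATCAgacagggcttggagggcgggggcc
Atf3, chr1:191183412-191183467, minus strand: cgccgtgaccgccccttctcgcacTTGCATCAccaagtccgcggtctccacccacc
Herpud1, chr8:94386293-94386348, plus strand: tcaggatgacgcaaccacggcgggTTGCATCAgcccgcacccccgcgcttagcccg
Aars, chr8:111033706-111033761, plus strand: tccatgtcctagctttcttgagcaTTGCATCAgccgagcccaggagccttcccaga
In the 3 promoters of Nupr1, Atf3 and Herpud1 the element ends 103, 103 and 105 bases before the start, in Aars 105 bases and in Chac1 186 bases before it. Slc7a11 carries it on both strands within 1 stretch. Trib3 has a match only after its start.

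Genes that bring amino acids into the cell or make them were also higher. Of 14 amino acid transporters listed, 9 were in the set, 8 were higher and 7 were more than 1.5-fold higher, with a median log2 fold change of 1.11. Slc7a11, the cystine importer, had 19.3 FPKM with EICD, 3.69 FPKM with GFP and 2.28 to 3.80 FPKM in untransfected cells. It entered the set through the EICD library only, so the entry limit favoured an increase for it. Slc6a9, a glycine transporter, had 113.7 FPKM with EICD, 24.2 FPKM with GFP and 26.3 to 37.1 FPKM in untransfected cells. Slc1a4 (alanine, serine, cysteine) had a log2 fold change of 1.80, Slc3a2, the heavy chain shared by several exchangers, 1.11, and Slc7a1 (arginine, lysine) 1.06. Slc38a2, the most abundant transporter of the list with GFP at 195.3 FPKM, had 0.20, and Slc7a6 had -0.14.

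Of 14 enzymes of serine, asparagine and one-carbon metabolism and related steps, 13 were in the set and 8 were more than 1.5-fold higher, none lower past that fold, with a median of 0.73. Gpt2, the mitochondrial alanine transaminase, had 90.7 FPKM with EICD, 18.1 FPKM with GFP and 16.5 to 20.3 FPKM in untransfected cells. Aldh18a1 and Pycr1, which make proline, had log2 fold changes of 1.35 and 1.02. Asns, asparagine synthetase, had 189.0 FPKM against 85.8 FPKM, and Mthfd2, the mitochondrial folate enzyme, 157.9 FPKM against 66.3 FPKM. The serine branch was uneven, with Psph at 0.73, Psat1 at 0.55 and Phgdh, its first enzyme and the most abundant of the list at 199.8 FPKM with GFP, at -0.07. The cytosolic folate enzymes Shmt1 and Mthfd1 had 0.10 and -0.32, and the mitochondrial Shmt2 and Mthfd1l 0.66 and 0.52.

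The 20 cytosolic aminoacyl-tRNA synthetases, which load tRNAs with their amino acids, split by enzyme. Of these, 8 were more than 1.5-fold higher with EICD, none was more than 1.5-fold lower, and the median log2 fold change was 0.50, or 0.65 relative to genes of their level. Cars, Sars, Aars, Yars, Iars, Nars, Gars and Lars had log2 fold changes from 0.93 down to 0.72. Sars had 294.5 FPKM with EICD, 156.3 FPKM with GFP and 118.9 to 153.2 FPKM in untransfected cells. By contrast Dars, Qars, Hars, Farsa, Rars and Kars had values from -0.07 to -0.51, and Vars, Wars and Farsb lay between 0.00 and 0.17. Eprs, Tars and Mars were in between.

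The unfolded protein response of the endoplasmic reticulum was mixed. Of 26 chaperones and sensors in the set, 2 were more than 1.5-fold higher and 1 was lower, with a median log2 fold change of -0.26, or -0.19 relative to genes of their level. The 2 were Herpud1, a degradation factor that is also on the ATF4 list, at 97.7 FPKM against 34.1 FPKM, and the sensor Atf6 at 0.84. The abundant chaperones were lower, Hspa5 (BiP) at -0.35, Hsp90b1 at -0.56 and Calr at -0.59, and Xbp1 and Dnajb9 were at 0.06.

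Genes of cholesterol synthesis and uptake were lower with EICD throughout. Of 25 listed, 21 were in the set, all 21 were lower and 11 were more than 1.5-fold lower, with a median log2 fold change of -0.61, the same relative to genes of their level. These genes are switched on together by SREBP2 when cells lack sterols. Idi1, an isomerase of the isoprenoid branch, had 36.2 FPKM with EICD and 71.9 FPKM with GFP, and Hmgcs1, which makes HMG-CoA, 48.8 and 83.0 FPKM. Insig1, the sterol sensor that is itself a target of the pathway, had 23.4 FPKM with EICD and 40.7 FPKM with GFP. Srebf2, which encodes SREBP2 itself, had a log2 fold change of -0.10. In the untransfected libraries Hmgcs1 ranged from 39.6 FPKM in control vector cells with PMA to 210.4 FPKM in knockdown cells with DMSO, so that the difference between the transfections was smaller than that spread. The EICD library had the lowest of the 6 values for 6 of the 21 genes, against 20.2% of the whole set. The 12 genes of fatty acid synthesis had a median of -0.22, with Elovl6 at -0.71 and Mid1ip1 at 0.66.

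Cytosolic chaperones and cytoskeletal genes were also lower. Hspa8, the constitutive HSP70, had 465.4 FPKM with EICD, 1059 FPKM with GFP and 1045 to 1227 FPKM in untransfected cells, so that the EICD library stood below all others. Hsp90aa1 had 222.4 FPKM against 383.6 FPKM, and 448.7 to 518.9 FPKM in untransfected cells. Of the 21 cytosolic heat shock genes in the set, 19 were lower, 6 more than 1.5-fold, with a median of -0.38, or -0.29 relative to genes of their level. The heat-inducible Dnajb1 and the regulator Hsf1 had 0.00 and 0.02, while Hspa1a had -0.61. Among 9 tubulin genes, all were lower and 7 more than 1.5-fold, with a median of -0.93, or -0.78 relative to genes of their level, and in 8 of 9 the EICD library had the lowest value of the 6. Tuba1a had 138.2 FPKM with EICD, 344.7 FPKM with GFP and 280.8 to 430.9 FPKM in untransfected cells. Tuba4a and Tubb4b had log2 fold changes of -1.23 and -1.05, and Tubb5, at 853.2 FPKM with GFP, had -0.75. Tubulin genes and Hspa8 have near-identical copies between which fragments can be split, so single values are uncertain. Of 19 genes on the list of actin cytoskeleton and SRF targets 16 were lower, Pfn1 (profilin) at -0.77 and Actb at -0.38, and the lowest of them, Tuba1c at -0.93, is a tubulin that is counted in both lists.

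**Figure D3:**
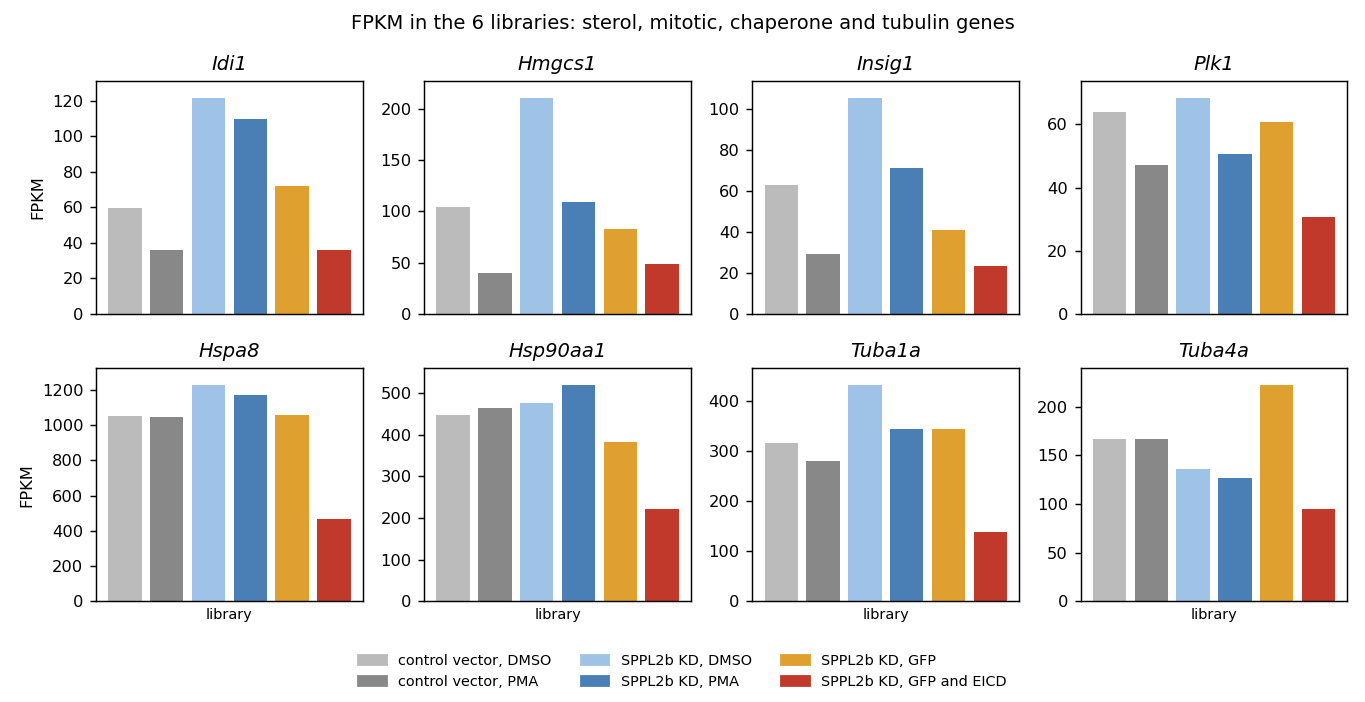
FPKM (vertical axes, from 0, each gene on its own scale) of 8 genes in the 6 libraries, 1 bar per library. Hspa8 is at 465.4 FPKM with EICD and at 1059 FPKM with GFP, whereas Hmgcs1 varies more among the untransfected libraries, from 39.6 to 210.4 FPKM, than between the transfections.

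Several gene groups had small shifts that ran across nearly all members. All 35 proteasome subunits in the set were lower, none past 1.5-fold, with a median of -0.39 and of -0.27 relative to genes of their level, and 33 had their lowest value of the 6 libraries with EICD. All 78 cytosolic ribosomal protein genes were lower, with a median of -0.20 that was -0.05 relative to genes of their level. Of 30 genes of mitosis 28 were lower, with a median of -0.35, or -0.32 relative to genes of their level. Plk1, a mitotic kinase, had 30.5 FPKM with EICD, 60.7 FPKM with GFP and 47.1 to 68.2 FPKM in untransfected cells, Kif20a had -0.77 and Cdc20 -0.74. The 32 DNA replication genes were split, 17 higher and 15 lower, with Fen1 at -0.67 the only one past 1.5-fold. In the opposite direction, all 21 lysosomal genes in the set were higher, 8 more than 1.5-fold, with a median of 0.42. Hexa and Grn, an enzyme of ganglioside breakdown and the progranulin gene, had 0.87 each, and Lamp1, the most abundant of the list, 0.31. Of 17 autophagy genes, Optn at 1.06 and Sqstm1 (p62) at 0.88 were the 2 past 1.5-fold.

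Several lists of signalling genes had medians above that of the set. Of 22 immediate early transcription factors, 21 were higher and 12 more than 1.5-fold higher, with a median of 0.65. Egr1 had 171 FPKM with EICD and 88.8 FPKM with GFP, and Nr4a1 and Ier2 had log2 fold changes of 1.18 and 0.97. Of 18 NF-κB genes, 8 were more than 1.5-fold higher and none lower, with a median of 0.37. Relb, a subunit, had 22.5 FPKM with EICD and 8.69 FPKM with GFP, and the inhibitor Nfkbia 112.3 against 48.6 FPKM. The subunits Rela and Nfkb1 had 0.29 and 0.34. The NF-κB core, GGGANTTCC, was in 5 of 16 promoters of this list (31.2%), in 520 of all 27025 (1.92%), in 204 of 6931 genes of the set (2.94%) and in 4 of 130 genes more than 2-fold higher (3.08%). The list holds subunits, inhibitors and known targets of NF-κB, so its share describes how it was chosen as much as these cells. The MAP kinase feedback inhibitors had a median of 0.09 over 13 genes, with Dusp5 at 1.09 and Errfi1 at 0.81, and this median was -0.09 with the EICD library scaled to the FPKM sum.

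Other lists held genes with large fold changes beside members near 0. Of the 22 targets of p53, 8 were more than 1.5-fold higher and none lower. Fas, a death receptor, had 14.1 FPKM with EICD and 4.33 FPKM with GFP, and Bbc3 (PUMA) and Gadd45a had log2 fold changes of 1.59 and 1.49, while Mdm2 had 0.22, Ccng1 -0.25 and Trp53 itself -0.32. Of 12 hypoxia-induced genes 10 were higher, 5 of them more than 1.5-fold, and none was more than 1.5-fold lower, with a median of 0.44. Vegfa had 80.5 FPKM with EICD and 20.2 FPKM with GFP, and Ndrg1 60.4 and 15.9 FPKM, whereas Egln1 had -0.04 and P4ha1 -0.19. Vegfa also reached 96.2 FPKM in control vector cells with PMA. Ndrg1 had 38.4 to 59.2 FPKM in untransfected cells, so that for it the GFP library stood below all others. The metal-binding Mt2 had 422.0 FPKM against 123.6 FPKM, the zinc importer Slc39a10 5.18 against 10.9 FPKM. Untransfected cells had 135.1 to 329.2 FPKM of Mt2, so that for it the GFP library stood below all others too. Of 27 junction genes only Tjp3, at 5.82 against 2.62 FPKM, was past 1.5-fold, and Cdh1 had 0.08. Of 7 mesenchymal genes all were between 0.05 and 0.66, with Tgfbi at 0.66 and Snai2 at 0.58. Their median was 0.38, or 0.35 relative to genes of their level. The 9 keratins had a median of -0.26, with Krt8 at -1.02, Krt14 at -0.64 and Krt15, a basal keratin, at 1.97. Krt14 had 3820 FPKM with GFP, 2456 FPKM with EICD and 1355 to 2154 FPKM in untransfected cells, so that the GFP library stood above all others. Among the proteases and inhibitors around epithin, Psen2, a presenilin, had 0.86 and Rhbdf2, a partner of the sheddase ADAM17, 0.67, and the inhibitor Spint1 and Adam17 had 0.02 and 0.10. The interferon list had 14 of its 40 genes in the set, Ifi27 leading at 0.75. Fas, Bbc3, Tjp3, Krt15 and Psen2 reached 5 FPKM in the EICD library only, so the entry limit favoured an increase for them.

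Other large increases were those of Uchl1, a ubiquitin hydrolase (0.04 to 5.11 FPKM), and Mmp12, a metalloproteinase of the matrix proteolysis list (0.46 to 5.73 FPKM), which reached 5 FPKM in the EICD library only. Both had low values with GFP, since Uchl1 had 0.348 to 1.003 FPKM and Mmp12 had 2.01 to 3.61 FPKM in untransfected cells. Lrrc32, a receptor for latent TGF-β, had 5.68 against 0.96 FPKM and, like Uchl1 and Mmp12, reached 5 FPKM in the EICD library only. The entry limit therefore favoured an increase for them. Ciart, a circadian repressor, had 38.8 against 8.88 FPKM. B4galt2, a galactosyltransferase, had 10.3 against 2.39 FPKM, but its locus overlaps that of Slc6a9 on the other strand and the values of both went together in the 6 libraries, so it cannot be read as a separate increase. The largest decreases described here were those of the zinc finger gene Zfp93 (37.2 to 2.20 FPKM) and of the predicted gene Gm13139 (40.3 to 3.33 FPKM). Zfp93 stood at 44.6 FPKM in knockdown cells with DMSO and at 1.96 FPKM or lower in the other 3 untransfected libraries. For Gm13139 the GFP library stood apart, since the untransfected libraries had 0.577 to 4.17 FPKM, a range that holds the EICD value. The GFP library also stood apart for Cd99l2, at 99.4 FPKM, since the other 5 had 28.2 to 34.3 FPKM. Sprr2j-ps, Pcolce2, Gm10226, Fkbp11 and Prl2c3 were between 5.27 and 7.13 FPKM with GFP and between 2.21 and 3.02 FPKM with EICD. These 5 entered the set through the GFP library only, as did 9 of the 20 genes more than 2-fold lower, so the entry limit favoured a decrease for them.

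The same genes were compared with the response to PMA, from libraries that the EICD comparison does not use. Over all 8919 genes the median log2 change with PMA was -0.13 in knockdown cells and -0.10 in control vector cells, and 6.91% and 6.64% of genes were more than 1.5-fold higher. The ATF4 and CHOP list had medians of -0.28 and -0.06 with PMA against 1.45 with EICD. Trib3 had 0.02 and 0.00, Chac1 -0.46 and -0.18, and Nupr1 -1.71 and -0.78 with PMA. The amino acid transporters had 0.13 and -0.01. In the opposite sense, the EGF family had 1.36 and 1.19 with PMA and 0.15 with EICD, or -0.04 with the EICD library scaled to the FPKM sum, and the MAP kinase feedback inhibitors had 0.88 and 0.77 against 0.09. Ribosome biogenesis genes had 0.66 and 0.48 with PMA and -0.27 with EICD. Lists with the same sign in all 3 comparisons included the NF-κB genes, at 0.89 and 0.90 with PMA, cholesterol synthesis, at -0.50 and -0.73, and mitosis, at -0.38 and -0.41. PMA was given for 2 h without serum and the EICD cells were transfected and sorted, so the sizes are set side by side only.

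**Figure D4:**
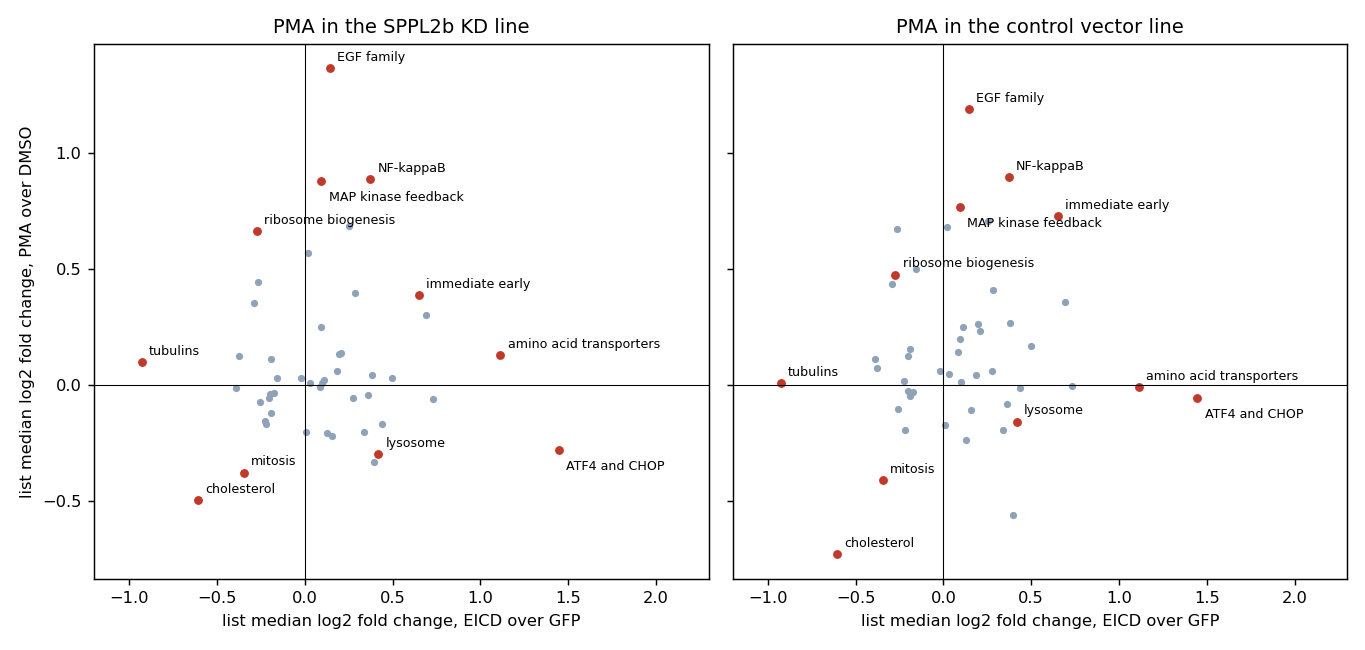
Median log2 change with PMA (vertical axis) against median log2 fold change with EICD (horizontal axis) of the 48 gene lists, in knockdown cells (left) and control vector cells (right), each point 1 list. The ATF4 and CHOP list lies at 1.45 on the EICD axis and at -0.28 (left) and -0.06 (right) on the PMA axis, and the EGF family at 0.15 and at 1.36 and 1.19.

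The GFP library also differed from that of untransfected knockdown cells with DMSO, a comparison that shares the GFP library with the one above. Between these 2 libraries the immediate early list had a median log2 ratio of 1.61, cholesterol synthesis -0.70, the ATF4 and CHOP list 0.21 and the tubulins 0.29. Relative to knockdown cells with DMSO, Fos, Egr1 and related genes were thus already high with GFP alone, and the sterol genes already low. Most ATF4 and CHOP targets were near their level in those cells. For sterol genes this depended on the library compared. Idi1 had 71.9 FPKM with GFP, 121.3 FPKM in knockdown cells with DMSO and 59.8 FPKM in control vector cells with DMSO. In the same order Hmgcs1 had 83.0, 210.4 and 104.2 FPKM, and Insig1 40.7, 105.1 and 62.8 FPKM. The GFP library and the knockdown library with DMSO differ in transfection, sorting, DMSO and, as far as the labels say, serum deprivation. These parts cannot be told apart.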

How the data were processed

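RNA from 6 samples, 1 per condition, was sequenced as paired 100-base reads from poly(A)-selected libraries. The submitters' processing notes name TopHat2 2.1.1, STAR 2.4.0b, Cufflinks 2.1.1, Cuffdiff 2.1.1 and GRCm38, with no role given. The authors deposited 1 FPKM value per locus and library, which is normalized to transcript length and library size, so fragment counts, replicate spread and count tests were not available to this work. FPKM depends on the assembled gene models. Loci the authors marked as newly assembled were left out.

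Log2 fold changes, list medians and counts past 1.5-fold and 2-fold were computed with Python 3.11.15, NumPy 2.4.6 and pandas 2.3.3, and plots with matplotlib 3.10.9. For PMA, 0.01 was added to both libraries. Depth was estimated from genes with 1 transcript of 2500 bases or more. Levels are FPKM throughout. The code was tested on simulated data. The members and the gene lists were chosen with earlier results of these data known, and lists can share genes. Genes were named by a rule, namely the 12 largest increases and decreases outside the chemokine and array genes, and per list the 3 largest changes and the most abundant member. Vegfa, an array gene, was named through its list. Members of described lists named beyond it, and the tubulin list, were chosen after their values were seen. Of 50 lists, 47 had 3 or more members, and the mitochondrially encoded, histone and snoRNA host lists had 0 or 1. No p-value was computed. Alternatives changed the amount added, the FPKM limit, the scaling, the centring and the gene models. A few genes that the rule names are not reported here. Whether counting used strand is not given in the sources used here, so values of overlapping loci, such as Atf5 with Nup62, Cebpb with Tmem189 and Tuba4a with Stk16, are uncertain.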

Additional observations from a re-analysis of the deposited data

How the results depend on the processing

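No paired analysis was possible because each condition has 1 library, and no library could be left out. The list medians moved by 0.2 or less on the log2 scale in 448 of 455 recomputed values. Upper quartile scaling, FPKM sum scaling and centring on the median shift every value by about -0.07, -0.18 and -0.05. These shifts are under 0.2 in size, so medians under them could not pass the limit, and the count says nothing about them. Across the 10 alternatives the median of the ATF4 and CHOP list ran from 1.26 to 1.55, of amino acid transporters from 0.93 to 1.20, of cholesterol synthesis from -0.79 to -0.60, of tubulins from -1.11 to -0.78 and of ribosomal proteins from -0.38 to -0.05. With annotated gene models only, the medians were 0.46 for AU-rich decay factors, -0.13 for MAP kinase feedback inhibitors, 0.034 for NRF2 genes, -0.14 for junctions and -0.54 for ribosome biogenesis, from fewer genes. At 10 FPKM in 1 library, and at 5 FPKM in both, the median of metallothioneins and metal transport was 0.34 in place of 0.69. Scaled to the FPKM sum, 11 of 48 list medians changed sign, all of them at 0.15 or less in size before. The lowest members of the lysosome, Notch, mesenchymal and cytokine receptor lists, at 0.04, 0.11, 0.05 and 0.05 before, fall below 0 with it. That all members of these lists were higher therefore depends on the scaling. That scaling gave 325 genes higher and 589 lower past 1.5-fold, and 43 lower past 2-fold. Upper quartile scaling gave 299 lower past 1.5-fold. Annotated models alone gave 74 higher and 42 lower past 1.5-fold, and 25 and 6 past 2-fold. Required in both libraries, 5 FPKM gave 96 higher and 11 lower past 2-fold, and the 10 FPKM limit gave 13 lower past 2-fold. Of 191 named genes, none that was past 1.5-fold changed direction. The alternatives shifted values too little for such a reversal, so this was settled in advance. In 55 of 1718 recomputed values a named gene crossed 2-fold. Centring within eighths of expression was chosen after seeing the data. Depth limits the genes near 5 FPKM, and no replicate error is known for any gene.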

Other observations

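Further gene groups in the same libraries have not been described above. All 9 genes of the Notch pathway in the set were higher with EICD, with a median log2 fold change of 0.39, or 0.31 relative to genes of their level. The receptor gene Notch3 had 25.5 FPKM with EICD and 13.3 FPKM with GFP, the ligand gene Jag1 had a log2 fold change of 0.53 and the target Hes1 0.43. The GFP library itself had a median log2 ratio of 1.19 over untransfected knockdown cells for this list, and PMA had -0.33 and -0.56. All 22 cytokine receptor, JAK, STAT and SOCS genes were higher, 5 of them more than 1.5-fold, with a median of 0.27, or 0.22 relative to genes of their level. In the whole set 4999 of 8918 genes were higher. Scaled to the FPKM sum, the lowest members of the Notch list and of the cytokine receptor list fall below 0. Ifngr2, a chain of the interferon gamma receptor, had 0.81, Il6st, the receptor chain shared by the IL-6 family, 0.69, and Stat3 0.05.

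Of 71 nuclear genes of oxidative phosphorylation, 61 were lower, with a median of -0.23, or -0.12 relative to genes of their level, and Uqcrh at -0.70 was the only one past 1.5-fold. Among 17 glycolysis genes, Eno2 and Pfkp had 1.44 and 0.93, while the abundant Pkm and Gapdh had -0.53 and -0.38. Eno2, at 3.09 FPKM with GFP, entered the set through the EICD library only, so the entry limit favoured its increase. The G1 regulators Ccnd1 and E2f3 had -0.87 and -0.96, Rb1 had 0.76. For E2f3 the GFP library stood apart at 23.1 FPKM, since EICD had 11.8 FPKM and untransfected cells had 9.41 to 14.4 FPKM.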
